A study of Saccharomyces cerevisiae with 30 samples.

Results

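The 10 genes described here are FUS1 (YCL027W), FUS2 (YMR232W), FIG1 (YBR040W), FIG2 (YCR089W), AGA1 (YNR044W), KAR4 (YCL055W), PRM1 (YNL279W), PRM2 (YIL037C), PRM3 (YPL192C) and PRM6 (YML047C) of Saccharomyces cerevisiae, which are induced when a cell meets the pheromone of the opposite mating type. They were chosen by name, and all 10 were found by their locus tags among the 7127 features of the transcript level table. In the Yeast Cell Cycle 2 dataset, 1 culture of the MATa bar1 strain derived from BF264-15D was grown in YEP medium with dextrose at 38.5°C, a mild heat stress. It was held before the cell cycle with alpha-factor for 150 min and then moved to fresh medium without it. Samples for total RNA were taken at intervals of 10 min up to 290 min, which gave 30 time points with a single library each. All libraries come from this 1 culture, no unarrested or untreated culture was analysed here, and the order of the time points is the only contrast. Levels are TPM (a relative transcript abundance), which are corrected for transcript length and sum to a fixed total in every library.

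Alpha-factor is the peptide pheromone secreted by MATα cells. In MATa cells it binds the receptor Ste2, and a G protein and a MAP kinase cascade ending in Fus3 activate the transcription factor Ste12, which binds pheromone response elements in the promoters of mating genes. Far1 stops the cell cycle in G1 while the cell forms a mating projection, and the induced proteins then serve adhesion, cell fusion and nuclear fusion. A bar1 strain lacks the secreted protease Bar1 that degrades alpha-factor, so that the arrest is held by low amounts of pheromone. Once the pheromone is gone the pathway is shut off and the cells bud.

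The core of the pheromone response element, TGAAACA, was searched on both strands in the 500 bases before the start codon of each gene in the R64 genome, the build named in the submitters' processing notes. At least 1 match was found for 9 of the 10 genes, compared with 721 of 6000 protein-coding genes (12.02%), and at least 2 matches for 7 of the 10, compared with 56 genes (0.933%). FIG1 had no match, which says only that these letters are absent from its window. AGA1 and PRM2 had 1 match, PRM1 had 3, a number reached by 5 of all genes (0.0833%), and the other 6 genes had 2 matches. A match is a run of letters and not a measured binding site. The stretches that hold the matches of FUS1, FUS2, PRM1, AGA1 and PRM2 are shown because these genes cover 1, 2 and 3 matches and differ in how they left the arrest. They are written 5′ to 3′ in the direction of the gene, and capitals mark TGAAACA or its reverse complement TGTTTCA.
FUS1 (chrIII:71606-71659, Watson strand, 197 to 144 bases before the start codon): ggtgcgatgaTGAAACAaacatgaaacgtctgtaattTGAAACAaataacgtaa
FUS2 (chrXIII:736695-736742, Watson strand, 231 to 184 bases before the start codon): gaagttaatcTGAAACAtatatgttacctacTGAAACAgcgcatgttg
PRM1 (chrXIV:110726-110774, Watson strand, 191 to 143 bases before the start codon): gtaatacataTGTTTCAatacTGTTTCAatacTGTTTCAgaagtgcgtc
AGA1 (chrXIV:703487-703513, Watson strand, 212 to 186 bases before the start codon): cataattttcTGAAACAatattaaaac
PRM2 (chrIX:285125-285151, Crick strand, 152 to 126 bases before the start codon): gttttaaaaaTGTTTCAgcccagtaat
FUS1 and FUS2 both carry 2 matches on the strand of the gene, whereas the 3 matches of PRM1 are all in the reverse orientation. The upstream windows of FUS1, FUS2, FIG1 and PRM6 also reach into a neighbouring gene, and none of the 10 genes overlaps another gene annotated in R64. Of the 7127 features, 6047 matched R64 by locus tag, and overlap with the other features was not checked.

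A pair of facts of the whole dataset bear on every value below. First, read numbers cannot be recovered from TPM, so the depth behind a value is unknown, and with 1 library per time point no test and no p-value can be given. Changes are set against the spread of a gene over the 14 time points from 160 to 290 min, which belong to 1 culture and are not independent. Second, the level of the typical feature was itself lower at 0 min. Over the 6622 features that vary, the median of the level at 0 min relative to the mean of 40, 50 and 60 min was 0.738-fold. A median-of-ratios factor was computed for each library, and dividing by it brings this median to 1. The 0 min values were thereby raised by 0.50 on the log2 scale relative to 40 to 60 min. Values after this division are called scaled TPM. Folds of every gene from 0 min to 40 to 60 min are therefore larger on scaled TPM, and both are given where they differ in call or direction.

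The labelled mating type was checked with genes that each type uses. Of the 7 a-specific genes, STE2, which encodes the alpha-factor receptor, was at 164 to 343 TPM, STE6, the exporter of a-factor, at 35.7 to 72.7 TPM, and AGA2, the partner of Aga1 in a-agglutinin, at 306 to 1515 TPM. BAR1 was at 0 TPM at all 30 time points. The very short a-factor genes were listed at 0 at 28 time points for MFA1 and at 5 for MFA2, and no level is drawn from them. The 4 alpha-specific genes were below STE2 and AGA2 at every time point, with a summed level of 29.5 to 49.6 TPM. None of them was at 0. MF(ALPHA)1, the main alpha-factor gene, was at 0.73 to 5.09 TPM and STE3 at 3.21 to 8.49 TPM. MF(ALPHA)2 was at 14.4 to 22.2 TPM and SAG1 at 10.6 to 21.6 TPM.

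**Figure D1:**
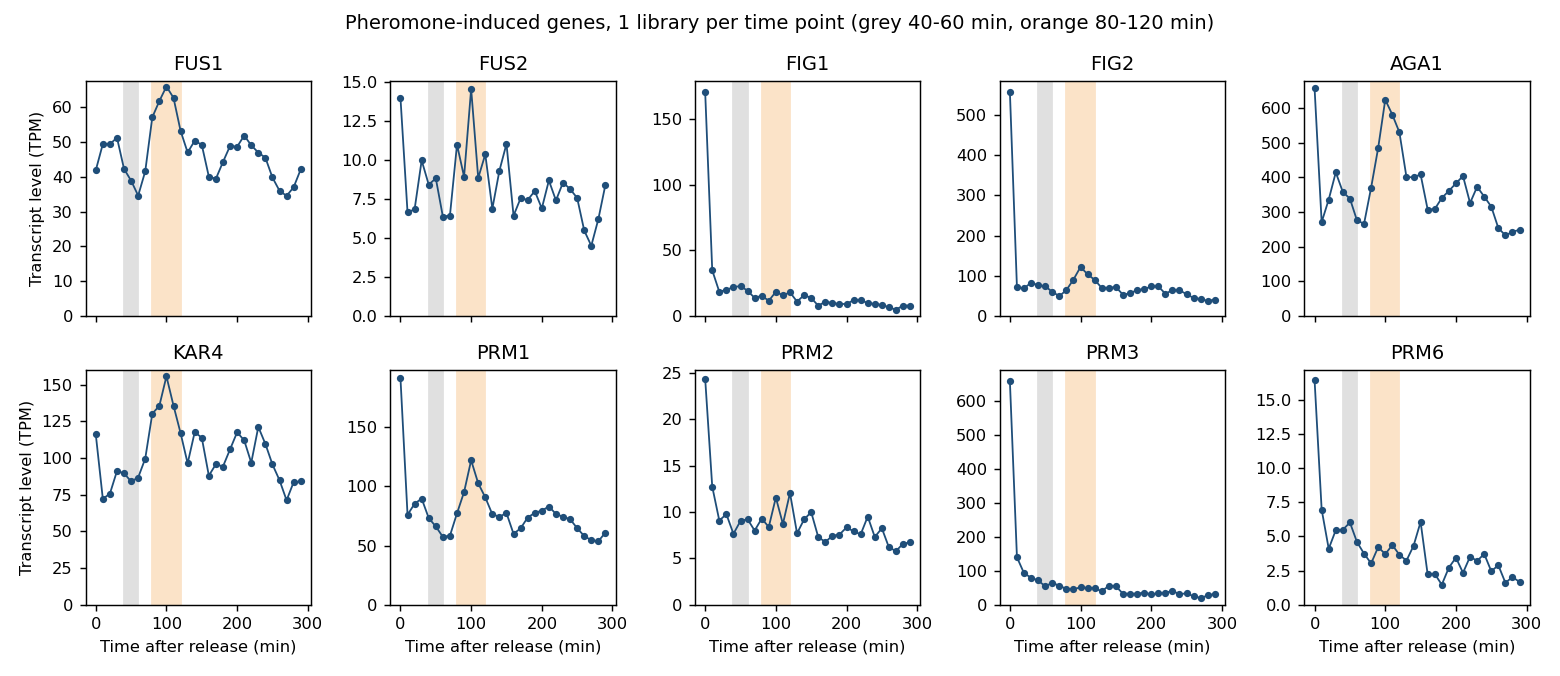
Transcript level in TPM (y axis, from 0, a separate scale for each gene) of the 10 genes over time after release in min (x axis). Each point is 1 library, the grey band marks 40 to 60 min and the orange band 80 to 120 min. FIG1, FIG2 and PRM3 fell from 171, 559 and 658 TPM at 0 min to 34.7, 70.8 and 140 TPM at 10 min, whereas FUS1 was at 41.9 and 66.0 TPM at 0 and 100 min.

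The first question was how far and how fast the mating transcripts left the arrested level. No library gave 0 TPM for any of the 10 genes, and the lowest value was 1.47 TPM, for PRM6 at 180 min. From 0 min to the mean of 40 to 60 min, 3 of the 10 genes (PRM3, FIG2 and FIG1) fell at least 4-fold, compared with 29 of the 6622 features that vary (0.438%). At least 2-fold falls, a threshold added after the values were seen, were found for 7 of the 10, compared with 107 features (1.62%). The median fold of the 10 genes was 2.68, set against 0.738 for all features. On scaled TPM it was 3.71 and PRM1 joined the genes past 4-fold. The 4 genes past 4-fold on scaled TPM compare with 51 of the 6622 features (0.770%). Folds were computed after adding 1 TPM to both levels, which understates the change of low genes.

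The steepest falls were those of PRM3, FIG2 and FIG1, which act at different steps of mating. PRM3, which encodes a protein of the nuclear envelope needed for nuclear fusion, was at 658, 140, 93.0 and 71.5 TPM at 0, 10, 20 and 40 min. Its fold from 0 min to 40 to 60 min was 10.2, the 5th largest of the 6622 features. FIG2, which encodes a cell wall adhesin of the mating projection, was at 559, 70.8 and 68.5 TPM at 0, 10 and 20 min, and its mean from 40 to 60 min was 69.7 TPM. On scaled TPM it was at 94.7 at 10 min, above its mean of 63.4 from 40 to 60 min. FIG1, which encodes a membrane protein needed for calcium uptake during mating, was at 171, 34.7 and 18.3 TPM at 0, 10 and 20 min. The folds of FIG2 and FIG1 to 40 to 60 min were 7.92 and 7.76, ranked 12th and 13th. At 10 min, 12.7% of the 0 min level of FIG2, 20.3% of that of FIG1 and 21.2% of that of PRM3 was left. For these 3 genes no later time point came near the value at 0 min, the highest from 60 min on being 121.72 TPM for FIG2, 19.0 TPM for FIG1 and 64.6 TPM for PRM3.

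A second set of genes fell by about 2- to 3-fold. PRM1, which encodes a membrane protein that helps the plasma membranes of mating partners to fuse, was at 191 and 76.0 TPM at 0 and 10 min and 57.3 to 73.2 TPM from 40 to 60 min, a fold of 2.89 (4.07 on scaled TPM). PRM6, which encodes a membrane protein linked to potassium transport, was at 16.4, 6.97 and 4.10 TPM at 0, 10 and 20 min, a fold of 2.74 to 40 to 60 min. PRM2, a pheromone-regulated membrane protein gene, was at 24.4, 12.7 and 9.08 TPM at 0, 10 and 20 min, a fold of 2.63. AGA1, which encodes the cell wall anchor of a-agglutinin, was at 657 and 270 TPM at 0 and 10 min, then at 336 and 415 TPM at 20 and 30 min and at 275 to 358 TPM from 40 to 60 min, a fold of 2.03. On TPM the level of AGA1 at 10 min was thus below that of the next 5 time points, whereas on scaled TPM it was 362 at 10 min and 340, 294 and 250.3 at 40, 50 and 60 min. All 4 genes were above every one of their own values from 160 to 290 min at 0 min.

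FUS2, KAR4 and FUS1 fell by less than 2-fold on TPM. FUS2, which encodes a cytoplasmic protein of the cell fusion zone, was at 13.98 and 6.63 TPM at 0 and 10 min and 6.36 to 8.82 TPM from 40 to 60 min, a fold of 1.69 (2.33 on scaled TPM). KAR4, which encodes a transcription factor that works with Ste12 on genes of nuclear fusion, was at 116 and 72.2 TPM at 0 and 10 min and 84.0 to 89.7 TPM from 40 to 60 min, a fold of 1.34. Its level at 0 min lay within its range from 160 to 290 min, 71.2 to 121 TPM, and on scaled TPM it lay 3.63 SD above the mean of that window. FUS1, which encodes a membrane protein of the fusion zone and is the usual reporter of the pheromone pathway, was at 41.9 TPM at 0 min and at 49.4 TPM at both 10 and 20 min. It was at 51.3 TPM at 30 min and at 34.6 to 42.3 TPM from 40 to 60 min. The fold of FUS1 was 1.08 on TPM and 1.52 on scaled TPM, and its value at 0 min lay within its range from 160 to 290 min, 34.5 to 51.9 TPM. On both scales FUS1 was higher at 10 min than at 0 min, at 66.1 against 53.8 scaled TPM. Even so, a fold of 1.08 placed FUS1 at rank 892 of 6622, since most features were lower at 0 min.

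**Figure D2:**
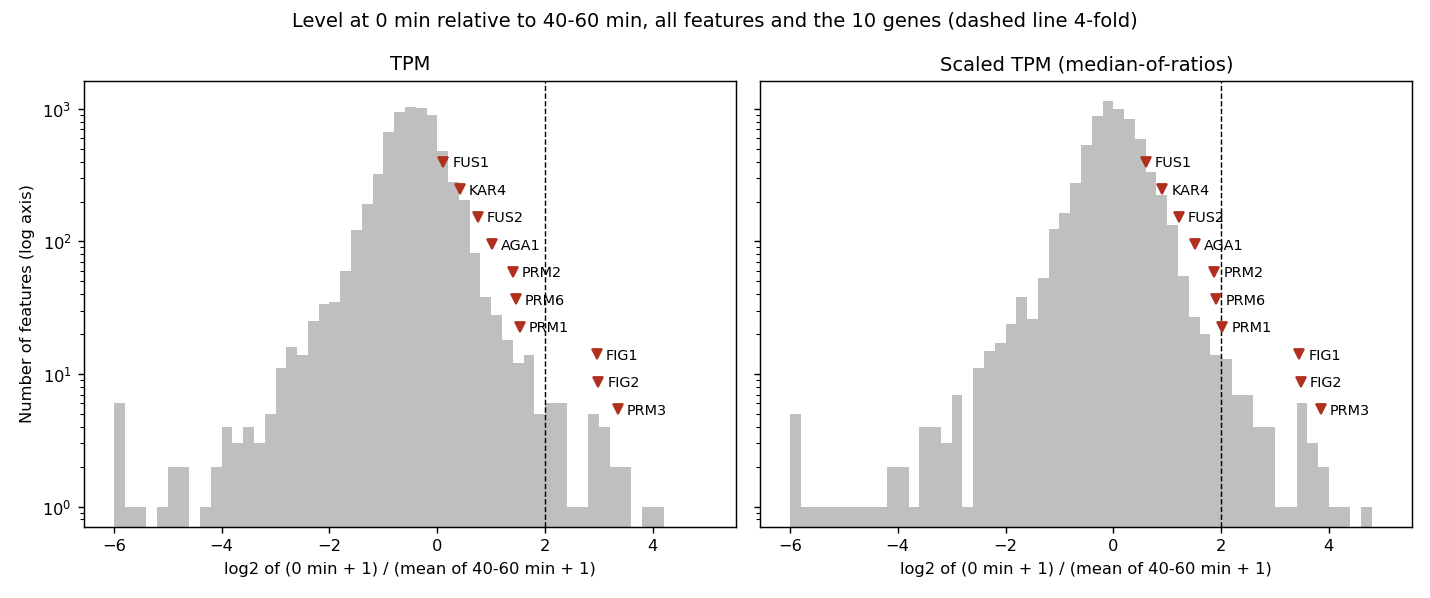
Number of features (y axis, log axis) by the log2 of the level at 0 min over the mean of 40 to 60 min, 1 TPM added to each (x axis), for TPM on the left and scaled TPM on the right. Triangles mark the 10 genes at their x value, their height has no meaning, the dashed line is 4-fold, and the leftmost bar holds features at or below -6. All 10 genes lie above 0, from 0.11 for FUS1 to 3.35 for PRM3 on TPM.

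The time at which a gene first reached 50% of its 0 min level was read by interpolating log2(TPM + 1) between samples. It was 3.36 min for FIG2, 4.37 min for FIG1, 4.48 min for PRM3, 7.52 min for PRM1, 7.81 min for AGA1, 8.15 min for PRM6, 9.32 min for FUS2 and 11.3 min for PRM2. For 7 genes the 50% level was therefore passed before the sample at 10 min, and the order of these times rests on the value of 1 library at 10 min. KAR4 and FUS1 did not reach 50% on TPM, and KAR4 did so at 48.4 min on scaled TPM. With FUS1 and KAR4 counted as later than all others, the median was 7.98 min. STRIPEs are time points at which levels across the transcriptome depart from those of neighbouring time points. The study's STRIPE detector also marks 0, 10 and 20 min, the libraries on which these folds and times rest. The study left them without interpolation, because it suspected that the release might give them a biological origin. The part of library effects in the fall was not tested. From 10 min onwards the median fold to 40 to 60 min was smaller, 1.20 on TPM against 0.698 for all features. On TPM 6 of the 10 genes never reached 50% of their 10 min level, and the share of all features was not counted. On scaled TPM, FUS1 reached it, at 66.1 and 31.4 at 10 and 60 min. FIG2 did likewise, at 94.7 and 46.2 at 10 and 70 min.

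At 0 min the levels of the 10 genes spanned from 13.98 TPM for FUS2 to 658 TPM for PRM3. PRM3 and AGA1 were within 1 TPM of each other at 0 min, at ranks 247 and 248 of all features, and FIG2 was at rank 270. PRM1, FIG1 and KAR4 followed at ranks 577, 637 and 872. FUS1, at rank 1920, was lower than 6 of the other genes, and PRM2, PRM6 and FUS2 were at ranks 2743, 3486 and 3815. The order had changed late in the series. Over 200 to 290 min, AGA1 had the highest mean (312 TPM), followed by KAR4 (97.7 TPM), PRM1 (67.7 TPM), FIG2 (54.5 TPM), FUS1 (43.2 TPM) and PRM3 (30.9 TPM), with FIG1 (8.63 TPM), PRM2 (7.42 TPM), FUS2 (7.18 TPM) and PRM6 (2.69 TPM) lowest. The ranges from 160 to 290 min of PRM1 (53.6 to 83.0 TPM) and FIG2 (37.0 to 73.1 TPM) overlapped, as did those of FIG1 (4.61 to 11.9 TPM), PRM2 (5.79 to 9.51 TPM) and FUS2 (4.49 to 8.68 TPM).

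After the fall, 6 of the 10 genes had higher levels again. FUS1, FUS2, FIG2, AGA1, KAR4 and PRM1 had means over 80 to 120 min at least 1.25 times those of 40 to 60 min, compared with 566 of the 6622 features (8.55%). This window and threshold were chosen after the values were seen. The median ratio over the 10 genes was 1.33, set against 0.968 for all features. AGA1 had the largest ratio, 1.60. It was at 266, 370, 486, 625, 581, 531 and 401 TPM at 70, 80, 90, 100, 110, 120 and 130 min. The level of AGA1 at 100 min was 0.95 times that at 0 min on TPM, against 546 scaled TPM at 100 min and 845 scaled TPM at 0 min.

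The other rising genes followed the same course. KAR4 was at 84.0, 130, 156 and 96.4 TPM at 50, 80, 100 and 130 min, a ratio of 1.55. FUS1 was at 34.6, 57.1, 66.0 and 47.0 TPM at 60, 80, 100 and 130 min, a ratio of 1.55. PRM1 was at 57.3, 77.2, 122 and 76.4 TPM at 60, 80, 100 and 130 min, a ratio of 1.48. FIG2 was at 48.9, 64.01, 121.72 and 69.3 TPM at 70, 80, 100 and 130 min, a ratio of 1.34. For these 5 genes, 90 and 110 min were also above each value from 40 to 60 min.

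FUS2 was less clear. It was at 14.6 TPM at 100 min, between 8.92 and 8.84 TPM at 90 and 110 min, with 10.98 and 10.4 TPM at 80 and 120 min. The library at 100 min is among the STRIPEs that the study marks both by eye and with its detector. The text of the study names 110 min in place of 100 min. Without the library at 100 min, FUS2 (1.22) and FIG2 (1.24) dropped under the ratio of 1.25. The 4 genes that still passed it compare with 7.51% of all features. On scaled TPM the same number of genes passed as on TPM, compared with 10.8% of all features. The highest value of the rise on scaled TPM was at 110 min for FUS1, AGA1 and KAR4. It was at 100 min for PRM1, FIG2 and FUS2.

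FIG1, PRM3 and PRM6 were lower at 80 to 120 min than at 40 to 60 min, and PRM2 had a ratio of 1.14. FIG1 was at 13.6 and 18.3 TPM at 70 and 100 min, a ratio of 0.75 to its 40 to 60 min mean. PRM3 was at 56.1 and 51.5 TPM at 70 and 100 min, a ratio of 0.77. PRM6 was at 3.74 and 3.71 TPM at 70 and 100 min, a ratio of 0.75. These ratios are taken against levels that were still above the later ones. Within the window itself FIG1 went from 11.4 to 18.3 TPM between 90 and 100 min and PRM6 from 3.03 to 4.37 TPM between 80 and 110 min, whereas PRM3 was between 45.7 and 51.5 TPM. Of the 3 genes with the steepest falls, only FIG2 passed its 40 to 60 min mean again by the ratio used.

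Genes that mark phases of the cell cycle place this rise in time. CLB2, the main mitotic cyclin gene, was highest at 60 min. SIC1, which encodes an inhibitor of the cyclin-dependent kinase made at mitotic exit, and EGT2 and ASH1, expressed at the end of mitosis and in early G1, were highest at 80 min. CTS1, which encodes the chitinase that separates mother and daughter cells, was highest at 100 min on TPM, at 745 TPM against a mean of 104 TPM from 40 to 60 min, and at 210 min on scaled TPM, at 656 against 651 at 100 min. On the other side of the rise, RNR1, a ribonucleotide reductase gene of late G1, had its highest later value at 120 min. For CLN2, a G1 cyclin gene, it was at 140 min, a library that the study lists as a STRIPE. CLN2 was at 66.0, 65.7 and 72.7 TPM at 120, 130 and 140 min. SWI4, another of the phase markers, was also highest at 100 min on TPM, at 17.9 TPM. On scaled TPM SWI4 was highest at 10 min, at 16.3 against 15.7 at 100 min. On TPM the later maximum of FUS1, FIG2, AGA1, KAR4 and PRM1 was thus at the time point of CTS1 and SWI4. It came after SIC1 and EGT2 and before CLN2. This shared time point is that of the library at 100 min and does not hold on scaled TPM for CTS1, FUS1, AGA1 and KAR4.

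**Figure D3:**
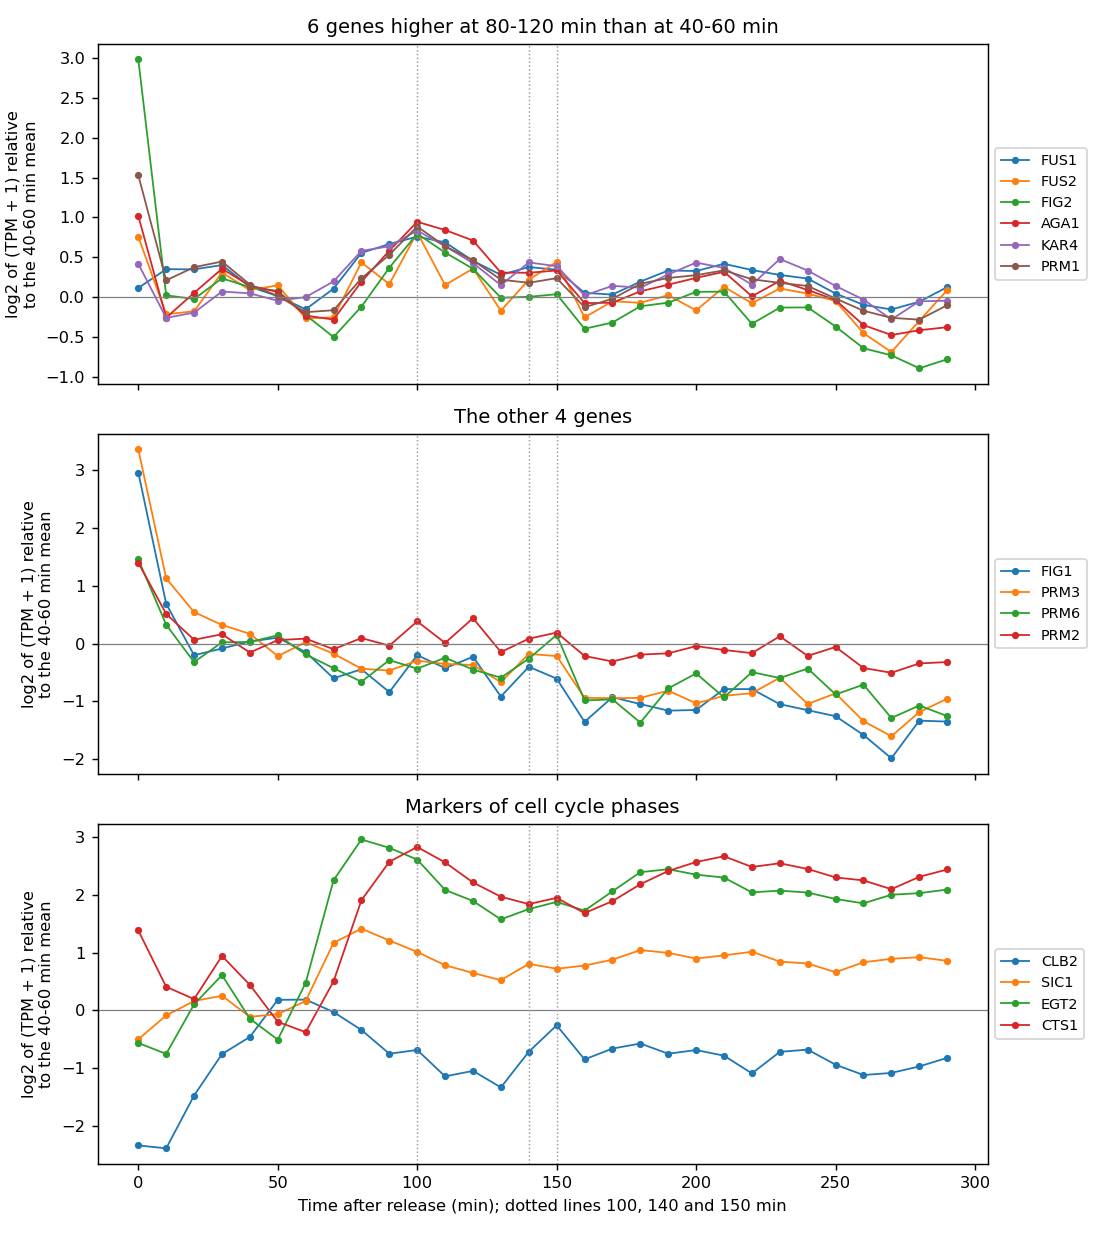
Level relative to the mean of 40 to 60 min, as log2 after adding 1 TPM (y axis, a separate scale for each panel), over time after release in min (x axis) for the 6 genes that were higher at 80 to 120 min (top), the other 4 genes (middle) and 4 phase markers (bottom). Each point is 1 library and the dotted lines mark 100, 140 and 150 min. After 60 min the 6 genes are highest at 100 min on TPM, as is CTS1, whereas FIG1, PRM3 and PRM6 stay below 0 from 160 min on.

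A smaller wave followed. FUS1 was at 39.4, 51.9 and 34.5 TPM at 170, 210 and 270 min. AGA1 was at 307, 404 and 232 TPM at 160, 210 and 270 min. PRM1 was at 59.9, 83.0 and 53.6 TPM at 160, 210 and 280 min. KAR4 had its later maximum at 230 min, with 121 TPM. These maxima were lower than those at 100 min in all of FUS1, AGA1, PRM1 and KAR4, and CTS1 and FIG2 likewise had a maximum at 210 min. On TPM the lowest value of the series was found from 260 to 290 min for 9 genes, the exception being PRM6 at 180 min, compared with 790 of the 6622 features (11.9%). On scaled TPM this held for 5 genes, compared with 13.3% of the features, and the lowest value was at 60 min for FUS1, AGA1 and PRM1 (31.4, 250.3 and 52.1 scaled TPM) and at 50 min for KAR4 (72.9 scaled TPM).

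Ranking of all features by the agreement of their order with cosine curves of 60 to 120 min, from 60 to 290 min, placed 5 of the 10 genes in the top 1000, which hold 15.1% of the features that vary. They were PRM1 (rank 29), FUS1 (rank 42), KAR4 (rank 63), AGA1 (rank 89) and FIG2 (rank 278). The best period was 110 min for PRM1, FUS1, AGA1 and FIG2 and 120 min for KAR4, the end of the range searched. FUS2 was at rank 1195 and PRM2 at rank 1523, while FIG1, PRM6 and PRM3 were at ranks 2452, 2622 and 3626. The ranks describe 1 culture.

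Late in the series the genes had also parted. The mean of 200 to 290 min relative to that of 40 to 60 min was 0.43 for FIG1, 0.50 for PRM3 and 0.58 for PRM6. It was between 0.78 for FIG2 and 1.12 for KAR4 for the other 7. The median of the 10 genes, 0.898, was close to that of all features, 0.896. Compared with 0 min, the late mean was 4.70% for PRM3, 5.04% for FIG1 and 9.74% for FIG2, whereas it was 84.0% for KAR4 and 103% for FUS1. At 270 min FIG1 was at 4.61 TPM and PRM3 at 20.2 TPM, the lowest values of both.

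The likeness of the courses was described by the correlation of log2(TPM + 1) over the 29 time points after 0 min, which share 1 culture and library effects. Among FUS1, FIG2, AGA1, KAR4 and PRM1, Pearson's r was 0.64 to 0.94 over 10 pairs. Among FIG1, PRM3 and PRM6 it was 0.80 to 0.92 over 3 pairs, and between the sets it was -0.06 to 0.62 over 15 pairs. The sets were formed after the courses had been seen, and FUS2 and PRM2 were placed in neither. For PRM2, r was 0.68 to 0.80 with FIG1, PRM3 and PRM6 and 0.36 to 0.71 with the first set. It thus correlated with genes of both sets. For FUS2, r was 0.71 to 0.78 with the first set and 0.32 to 0.47 with FIG1, PRM3 and PRM6.

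At 140 and 150 min, both listed as STRIPEs by the study, 8 of the 10 genes were above both 130 and 160 min, compared with 4344 of the 6622 features (65.6%). The exceptions were AGA1, at 400 and 401 TPM at 140 and 130 min, and PRM1, at 74.3 and 76.4 TPM at 140 and 130 min. PRM6 changed most. It was at 3.23, 4.31, 6.06 and 2.22 TPM at 130, 140, 150 and 160 min. PRM3 was at 39.6 TPM at 130 min, 56.0 and 54.5 TPM at 140 and 150 min and 32.7 TPM at 160 min. The median difference of the 10 genes was 0.32 on the log2 scale for TPM and 0.08 for scaled TPM. On scaled TPM 5 genes were above both flanking time points, compared with 31.7% of all features, and in the corrected scores that the authors deposited 1 was, compared with 32.2%.

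The corrected scores also change how the arrest appears. In these scores the Z-scores of each gene, taken over its 30 values, were forced to 1 distribution in every library. The Z-score of FUS1 at 0 min was -0.61, below its own mean, and the corrected score was 0.32, above it. At 100 min the scores of FIG2 and PRM1 fell by correction, from 0.43 to -0.32 and from 1.69 to 0.69. The scores of FIG1, FIG2 and PRM3 at 0 min went from 5.26 to 3.03, from 5.28 to 3.22 and from 5.26 to 3.08. The direction given for FUS1 at 0 min, and for FIG2 at 100 min, relative to their means therefore depends on the correction.

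**Figure D4:**
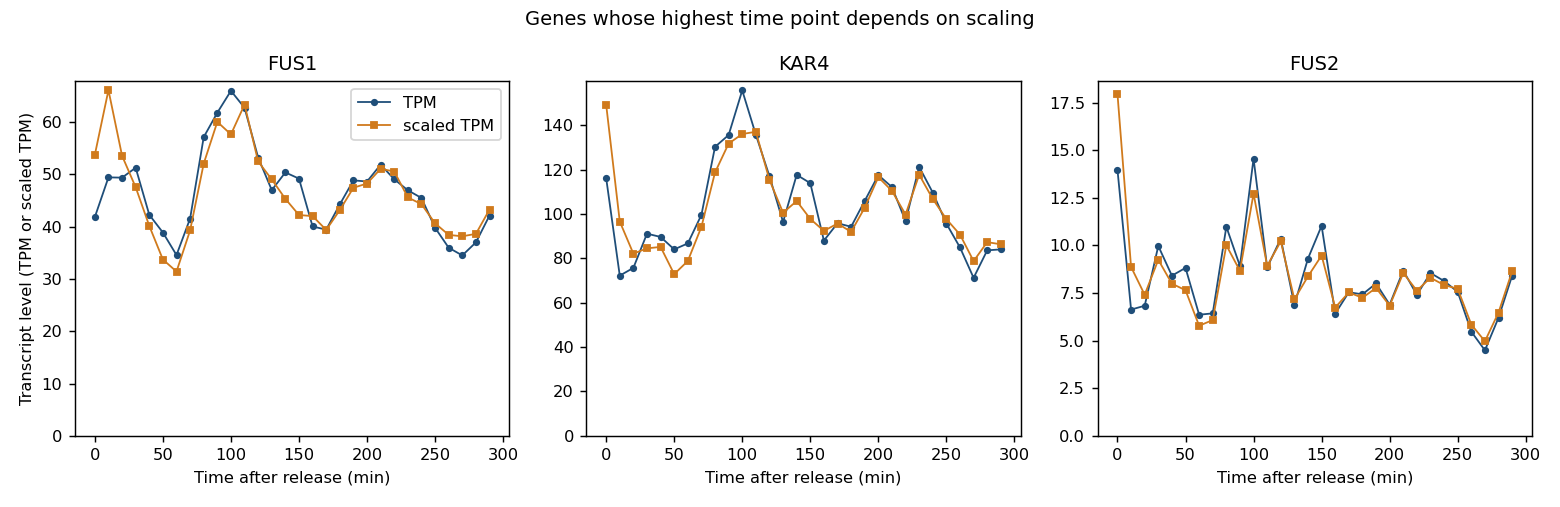
Transcript level (y axis, from 0, a separate scale for each gene) as TPM and as TPM after median-of-ratios scaling, for FUS1, KAR4 and FUS2 over time after release in min (x axis). Each point is 1 library. On TPM all 3 genes are highest at 100 min, and on scaled TPM FUS1 is highest at 10 min (66.1) and KAR4 and FUS2 at 0 min (149 and 17.96).

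The highest time point of a gene depended on scaling for 3 of the 10. On TPM, 7 genes were highest at 0 min, and FUS1, KAR4 and FUS2 at 100 min. On scaled TPM, 9 were highest at 0 min and FUS1 at 10 min. The share of all features that were highest at 0 min was not counted, and scaling raised the 0 min value of every feature. In units of the SD of log2(TPM + 1) over 160 to 290 min, the value at 0 min lay 17.8 SD above the mean of that window for PRM3, 13.2 for FIG1, 10.5 for FIG2, 9.82 for PRM2, 7.66 for PRM6, 7.19 for PRM1, 4.11 for AGA1, 3.78 for FUS2 and 1.26 for KAR4. FUS1 lay 0.18 SD below that mean on TPM, at -0.18, and 2.12 SD above it on scaled TPM.

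Other genes of the pathway were taken from a fixed list. This list holds 23 further genes known to be induced by pheromone. From 0 min to 40 to 60 min, 1 of them fell at least 4-fold, compared with 0.438% of all features. Of the 23, 3 fell at least 2-fold, compared with 1.62% of all features. Lower at 0 min than at 40 to 60 min were 13 of the 23, as were 80.3% of all features. The median fold of the 23 genes was 0.937 on TPM and 1.29 on scaled TPM. On scaled TPM, 5 of the 23 fell at least 2-fold, compared with 301 of the 6622 features. On that scale 3 were lower at 0 min, compared with 48.8% of all features. ASG7, an a-specific gene that acts on pheromone signalling after mating, was at 781, 174 and 103 TPM at 0, 10 and 20 min, a fold of 7.67. SCW10, which encodes a cell wall glucanase, was at 1012 TPM at 0 min, with a fold of 2.12, and PRM7 was at 22.3 TPM, with a fold of 2.28. RVS161, whose product binds Fus2, had a fold of 1.92 (2.71 on scaled TPM) and a ratio of 1.29 at 80 to 120 min. For genes of the pathway itself the direction often turned with scaling. The fold of STE12 was 0.84 on TPM and 1.18 on scaled TPM, and that of GPA1, which encodes the G protein alpha subunit, was 0.89 and 1.26. FUS3 had folds of 1.23 and 1.73, SST2, which encodes a negative regulator of the G protein, 0.77 and 1.09, and FAR1 0.60 and 0.84. KAR3 and CIK1, which encode the motor of nuclear fusion and its partner, had folds of 0.68 and 0.81 on TPM and of 0.92 and 1.11 on scaled TPM. KAR5, needed for fusion of the nuclear membranes, had folds of 1.24 and 1.72. At 80 to 120 min, 5 of the 23 were at least 1.25 times their 40 to 60 min mean, compared with 8.55% of features. These 5 were TEC1, CHS1, RVS161, STE12 and SST2, with ratios of 1.34, 1.34, 1.29, 1.28 and 1.28. AGA2, the partner of AGA1, was at 1515 TPM at 0 min, with a fold of 4.01 against 2.03 for AGA1, and rose at 80 to 120 min by a ratio of 1.54, close to the 1.60 of AGA1.

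Among the 5130 features that averaged 10 TPM or more, those most like the mean course of the 10 genes over the 30 time points were HYM1 (Pearson's r of 0.93), PRM8 (0.88), KRE2, ARG4, ERG24, LEU4 and VID28 (each 0.87), DFG5 and RDI1 (each 0.86) and YDR124W (0.85). Without 0 min the correlations were 0.75 to 0.89. HYM1 was at 34.1 TPM at 0 min, with a fold of 1.98 on TPM, and its fold on scaled TPM is not given here. PRM8, itself a pheromone-regulated gene of the further list, was at 135 TPM at 0 min, with a fold of 1.90 (2.69 on scaled TPM). Of the 10 genes themselves, PRM1 (0.95) and FIG2 (0.93) were most like the mean course, and FUS1 (0.60) and KAR4 (0.62) least.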

How the data were processed

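Reads of 30 libraries (Illumina Stranded mRNA Prep, NovaSeq) were aligned with STAR and quantified with RSEM by the authors, who deposited TPM for 7127 features. Versions are not given in the sources used here. The corrected scores that the authors deposited equal Z-score quantile normalization computed here to within 1e-09 for 6622 features. The labels give 40 ng/ml of alpha-factor, and the paper gives another unit, so the concentration is uncertain.

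TPM keep no depth, so the precision of each value is unknown. Of the 7127 features, 505 were at 0 TPM throughout and were left out. Each time point has 1 sample, taken from its time label, and no test was made. Folds used a pseudocount of 1 TPM, calls were at 4-fold, and median-of-ratios factors used the 6170 features above 0 TPM at every time point. Periodicity was a rank by Kendall's statistic. Names and coordinates came from the R64 assembly (6047 features matched by locus tag). Python 3.11.15, numpy 2.4.6, pandas 2.3.3, scipy 1.17.1 and matplotlib 3.10.9 were used, and the functions were tested on simulated data.

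The 10 genes and the lists were chosen with earlier results of these data known. Besides the 10 genes, the genes named are those of fixed lists (23 other pheromone-induced genes, 14 phase markers, 7 a-specific and 4 alpha-specific genes) and the 10 features most like the mean course among those with a mean of at least 10 TPM. Alternatives were median-of-ratios scaling, a pseudocount of 0.1 TPM, other early and late windows, a start at 10 min, a filter at a mean of 1 TPM, other periods and time points, the deposited scores, and a margin of 10%.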

Additional observations from a re-analysis of the deposited data

How the results depend on the processing

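The 6 planned summaries and the rise at 80 to 120 min were recomputed under 35 alternatives, of which 28 left them within 1.5 times. With 10 min in place of 0 min as the start, 0 of the 10 genes fell at least 4-fold on TPM. This compares with 0.136% of all features. The median fold was then 1.20, set against 0.698 for all features. The 4-fold calls and the size of the median fold thus rest on the library at 0 min. The study's STRIPE detector marks 0, 10 and 20 min, for which the study suspected a possible biological origin. On scaled TPM all 10 genes were higher at 10 min than at 40 to 60 min. PRM3 was at 187 against 57.9 and KAR4 at 96.6 against 78.9. The share of all features higher at 10 min on scaled TPM was not counted. Scaling raised the 10 min value of every feature relative to 40 to 60 min. The factor divided by was 0.748 at 10 min and 1.05 to 1.15 from 40 to 60 min. No median time to 50% is given from 10 min, since on TPM 6 genes never reached it. At a threshold of 2-fold, chosen after seeing the data, 7 genes fell. With time points from 100 min, 8 genes were in the top 1000 by periodicity. The genes above both flanking time points at 140 and 150 min numbered 5 after median-of-ratios scaling and 1 in the deposited corrected scores. With 130, 160 and 170 min as the low time points, chosen after seeing the data, 10 genes passed the rise of 1.25 at 80 to 120 min, compared with 11.8% of all features. No paired analysis was possible because the labels give no replicates. Sampling every 10 min limits the times to 50%, and TPM of short or low genes such as PRM6 and FUS2 carry an unknown counting error.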
